A study of Oryza sativa Japonica Group with 15 samples.

Results

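The CBL-interacting protein kinases (CIPKs) and the calcineurin B-like proteins (CBLs) of rice (Oryza sativa ssp. japonica) were followed in the shoot base before and after plants were laid on their side. Members were taken by name, as every gene whose annotated symbol or synonym was CIPK or CBL followed by a number, with or without the prefix Os. The annotation held 39 such genes, of which 31 (24 CIPKs and 7 CBLs) had a probe set of their own, out of 17905 genes with one, and these 31 took 42 of the 57381 probe sets of the array. Each gene was read on its brightest probe set. Soil-grown seedlings 21 days old, kept for 16 h in darkness, were turned by 90° to the horizontal, a step done without light in the labels but under weak green light in the methods. The 5 groups of 3 arrays were the whole shoot base of vertical plants at 0 h, both flanks (upper and lower) at 0.5 h and both flanks after 6 h. No mutation, transgene or chemical is named for any group, each array carried RNA from pooled pieces, and vertical plants at 0.5 h or 6 h were not analysed here. A difference between 6 h and 0 h therefore joins the turn, the hours passed, any light during handling and the cutting of flanks from whole bases, which cannot be told apart.

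CBLs are calcium sensors with EF-hand motifs. A CBL that has bound calcium attaches to the NAF motif in the regulatory tail of a CIPK, frees the kinase from autoinhibition and often carries it to a membrane, where the pair phosphorylates ion channels and transporters. CIPKs are also known as SnRK3 kinases, relatives of the energy sensor kinases SnRK1 and the abscisic acid kinases SnRK2. The best known pair is the Salt Overly Sensitive module, which in rice is made of the sensor CBL4 and the kinase CIPK24 and activates sodium export. Calcium is an early second messenger when a plant organ is tilted, and the comparison of both flanks asks whether the genes of this calcium relay became unequal across the bending organ.

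Values are signals on the log2 scale with the median of each array set to 0, so that a level of 3 lies 8-fold above the median probe set. Of the 31 genes, 27 (21 CIPKs and 6 CBLs) were in the 50% of probe sets with the highest mean signal and were tested. CIPK5, CIPK20, CIPK30 and CBL5 fell below that level, at mean log2 signals of -2.90, -1.04, -1.83 and -1.27. Among these 4 genes the SD of a group of 3 arrays had a median of 1.1, against 0.19 among the tested genes. CIPK3, CIPK9, CIPK13, CIPK15, CIPK27, CIPK33, CBL1 and CBL7 had no probe set of their own in the annotation used. Differences were tested with limma, and a gene is called where the Benjamini-Hochberg adjusted p over all 28629 tested probe sets was under 0.05.

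Array medians ran from 22.8 to 29.6 on the 5 arrays numbered replicate 1 and from 17.2 to 23.1 on the other 10, and a labelling control (DapX, 5′ end) read 107 to 209 on the former and 16.5 to 26.3 on the latter. The 4 KNOX genes matched, which mark the shoot apex and stem, all lay above the array median, with summed log2 levels of 7.95 to 8.35 over the 15 arrays. Their sum was 8.06 to 8.09 at 0 h. The upper flank lay above that range without overlap, at 8.12 to 8.28 after 0.5 h and 8.23 to 8.35 after 6 h. The lower flank overlapped the 0 h range at both times. Of 3 green leaf genes 2 lay above the array median, CAB2R at a mean log2 signal of 5.08 and RBCS at 1.36. RBCS1 was at -3.44, so CAB2R made up most of their sum. The summed log2 level of these green leaf genes was 3.94 to 5.23 at 0 h and 5.42 to 5.55 in the 6 h upper flank, groups that did not overlap. The 6 h lower flank, at 5.20 to 5.52, overlapped the 0 h range. So did the 0.5 h upper flank (4.67 to 5.56) and the 0.5 h lower flank (4.65 to 5.48). The part of the KNOX and green leaf genes in the changes between 0 h and 6 h was not tested. No root marker could be matched to a probe set.

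Over the 5 groups, 15 of the 27 tested genes (55.6%) varied by limma's F test, where 34.8% of all tested probe sets did. These were CIPK6, CIPK10, CIPK12, CIPK14, CIPK16, CIPK17, CIPK19, CIPK24, CIPK25, CIPK29, CIPK31, CIPK32, CBL3, CBL4 and CBL10. The call of CIPK17 was lost on leaving out any array but replicate 1 of the 0.5 h or of the 6 h lower flank, and without centring or filter, and that of CIPK12 without replicate 2 of the 6 h lower flank, without centring, without a filter, with quantile scaling, with the arrays numbered 2 and 3 alone and on its second probe set. CIPK1 and CIPK21 were called in 1 comparison each without passing the F test. The other 10 genes were called nowhere.

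The lower and the upper flank differed at 6 h in 2 kinases, CIPK6 and CIPK31, both with more signal below. These 2 calls of 27 (7.41%) compare with 1.75% of all tested probe sets (1.47% higher in the lower flank), and no CBL was called. In both genes the upper flank had fallen from its 0 h level by then, and the lower flank was not called against 0 h.

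CIPK6 is encoded on chromosome 8; the Arabidopsis kinase of that name works with CBL4 on a potassium channel. Its log2 signals were 3.69, 4.24 and 3.88 at 0 h, 3.67, 3.78 and 3.73 in the 0.5 h upper flank, and 3.62, 3.74 and 3.74 in the 0.5 h lower flank. By 6 h they were 2.80, 2.67 and 2.70 in the upper flank and 3.64, 3.57 and 3.41 in the lower flank. The 3 upper flank arrays at 6 h lay below all other 12 arrays. The lower flank exceeded the upper by 0.82 on the log2 scale (SE 0.13, 1.76-fold, limma adjusted p = 0.00592), a call that held with each array left out and ended without centring (adjusted p = 0.154), with the arrays of both groups alone (0.0638) and with the arrays numbered 2 and 3 alone (0.0695). Against 0 h the upper flank fell by 1.21 (SE 0.13, 2.32-fold, adjusted p = 5.52e-05), while the lower flank differed by -0.40 (SE 0.13, adjusted p = 0.0531). From 0.5 h the upper flank fell by 1.0 (SE 0.13, 2.0-fold, adjusted p = 0.000107).

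CIPK31, on chromosome 3, was cloned as OsCK1 and is also listed as CIPK3; it is a rice kinase of stress and seedling growth. It read 4.58, 4.77 and 5.53 at 0 h, 4.70, 5.17 and 5.0 in the 0.5 h upper flank, and 4.43, 4.76 and 4.89 in the 0.5 h lower flank. By 6 h it read 4.17, 3.94 and 3.72 in the upper flank and 5.21, 5.29 and 5.15 in the lower flank. Again the 3 upper flank arrays at 6 h were the lowest of all 15. The flanks differed by 1.27 (SE 0.23, 2.41-fold, adjusted p = 0.0101), with a 95% interval of 0.78 to 1.76. The upper flank had fallen by 1.01 from 0 h (SE 0.23, adjusted p = 0.0061), and the lower flank stood at 0.26 above it (SE 0.23), not called. The upper flank fall missed the threshold with the arrays of both groups alone (adjusted p = 0.054) and on the second probe set (-0.48, adjusted p = 0.407). From 0.5 h the upper flank fell by 1.01 (SE 0.23, adjusted p = 0.00408; -0.88 and not called on the second set, adjusted p = 0.0993). The flank call was lost without replicate 3 of the 6 h upper flank (difference 1.16, adjusted p = 0.059) and without replicate 2 of the lower flank (1.23, adjusted p = 0.0525), and with the arrays numbered 2 and 3 alone (1.38, adjusted p = 0.0631), and it ended without the filter on low signals (adjusted p = 0.0556). A second, dimmer probe set of the gene gave a difference of 0.64 that was not called (adjusted p = 0.559).

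**Figure D1:**
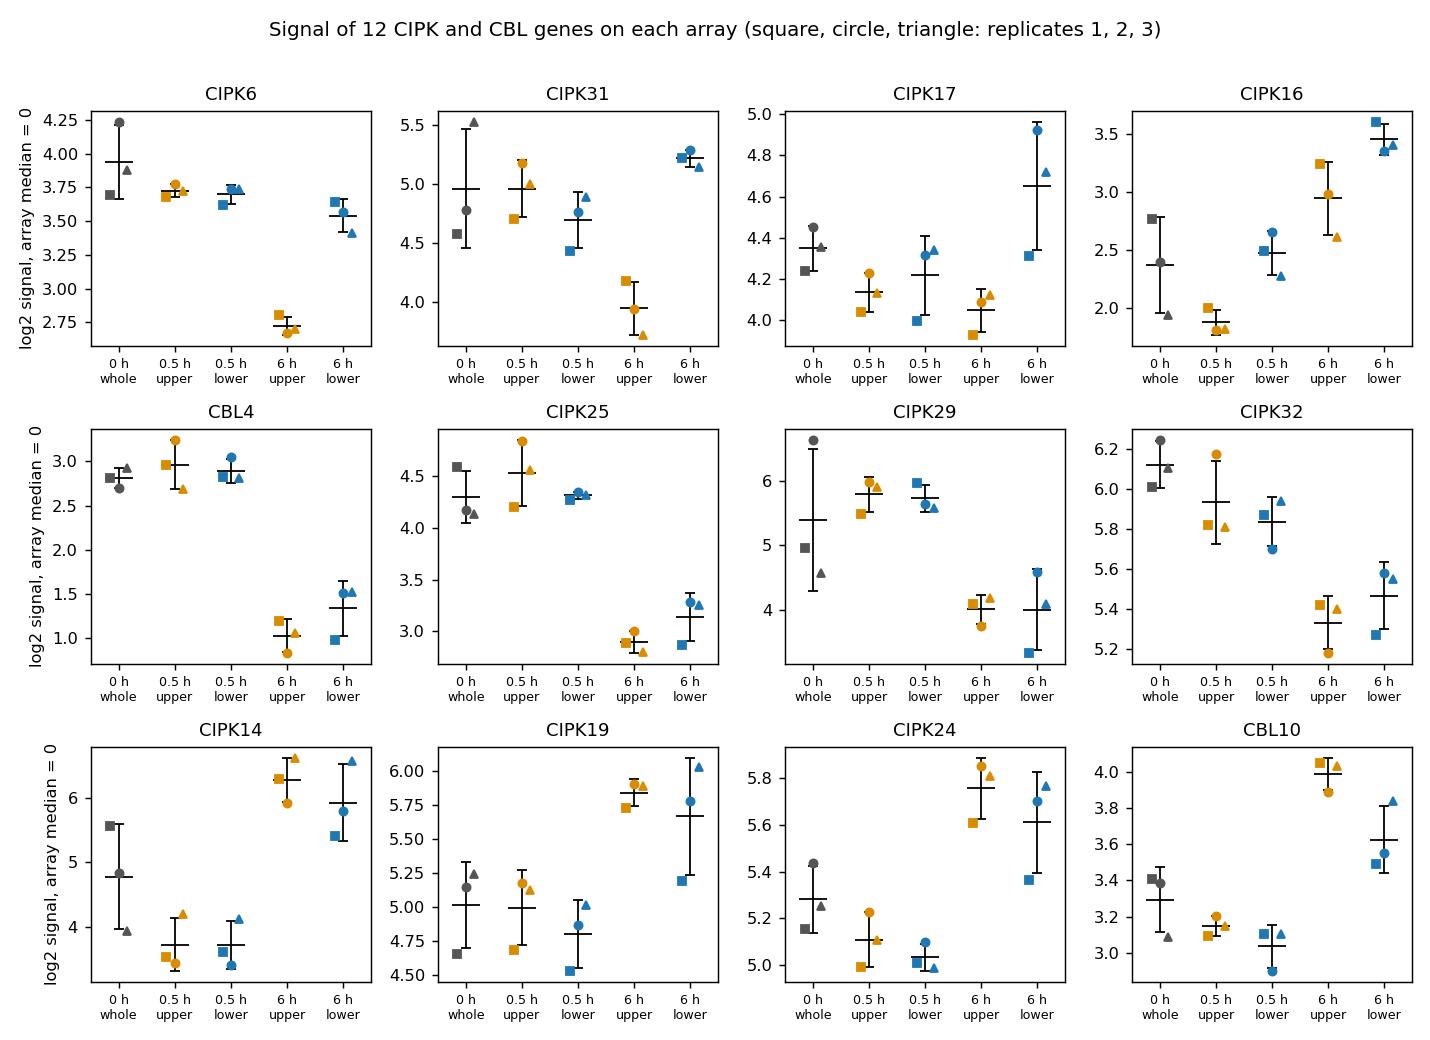
Log2 signal (array median = 0) of 12 genes on each of the 15 arrays, by group; each panel has its own vertical scale, bars are the mean ± SD of 3 arrays and colours mark the whole base, the upper and the lower flank. CIPK6 and CIPK31 are lowest in the 3 upper flank arrays at 6 h, whereas CBL4 and CIPK25 are low in both flanks at 6 h and CIPK24 and CBL10 stand higher there than at 0.5 h.

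At 0.5 h neither gene had separated. CIPK6 differed between flanks by -0.03 (95% interval -0.32 to 0.26) and CIPK31 by -0.27 (-0.75 to 0.22). The change of the flank difference from 0.5 h to 6 h was 0.84 in CIPK6 (SE 0.19, adjusted p = 0.0874) and 1.54 in CIPK31 (SE 0.32, adjusted p = 0.0612), and no member of the 27 was called where 0.545% of all probe sets were. With the upper and lower flank sample of a time and number paired as a block, both changes were called (adjusted p = 0.038 for CIPK6 and 0.0156 for CIPK31), and 1.04% of all probe sets were.

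CIPK17, on chromosome 5, was the next in size. It read 3.93, 4.09 and 4.13 in the 6 h upper flank and 4.31, 4.92 and 4.72 in the lower flank, groups that did not overlap. The difference of 0.60 (SE 0.16) was not called in the fit without pairs (adjusted p = 0.0885) and was called with the flank pairs as a block (adjusted p = 0.0441), in which 3.74% of all probe sets were, as well as with quantile scaling, the 25% filter, 16 added and the arrays numbered 2 and 3 alone. At 0 h the gene read 4.24, 4.46 and 4.36, between both flanks of 6 h on average, and at 0.5 h 3.99 to 4.34 over the 6 arrays.

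CIPK16, on chromosome 9, showed the same sign of difference at both times. At 0.5 h it read 2.0, 1.81 and 1.81 in the upper flank and 2.49, 2.65 and 2.27 in the lower flank, the only one of the 27 genes whose flanks did not overlap at that time, against 10.1% of all probe sets. At 6 h it read 3.23, 2.98 and 2.61 in the upper and 3.60, 3.35 and 3.40 in the lower flank. Neither the difference of 0.60 at 0.5 h (SE 0.21, adjusted p = 0.992) nor that of 0.51 at 6 h (SE 0.21, adjusted p = 0.358) was called. None of the 27 genes was called between flanks at 0.5 h by limma, 1 of them had an unadjusted p under 0.05 (3.70% of the 27, against 3.2% of all probe sets), and 0.00699% of all probe sets were called.

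Among the 27 genes 12 lay higher in the 6 h lower flank and 15 in the upper (16 and 11 with quantile scaling), with a median difference of -0.01 beside -0.08 over all tested probe sets. In 8 genes (29.6%, against 18.4% of all probe sets) the flanks did not overlap at 6 h, 5 of them higher below and 3 higher above. Of the 6 sensors 5 had differences below 0, none called, of which CBL6 (-0.01) turned above 0 with quantile scaling. CBL10 was at -0.36 (95% interval -0.64 to -0.08, adjusted p = 0.272). CBL4 was above 0, at 0.31 (95% interval -0.08 to 0.70).

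**Figure D2:**
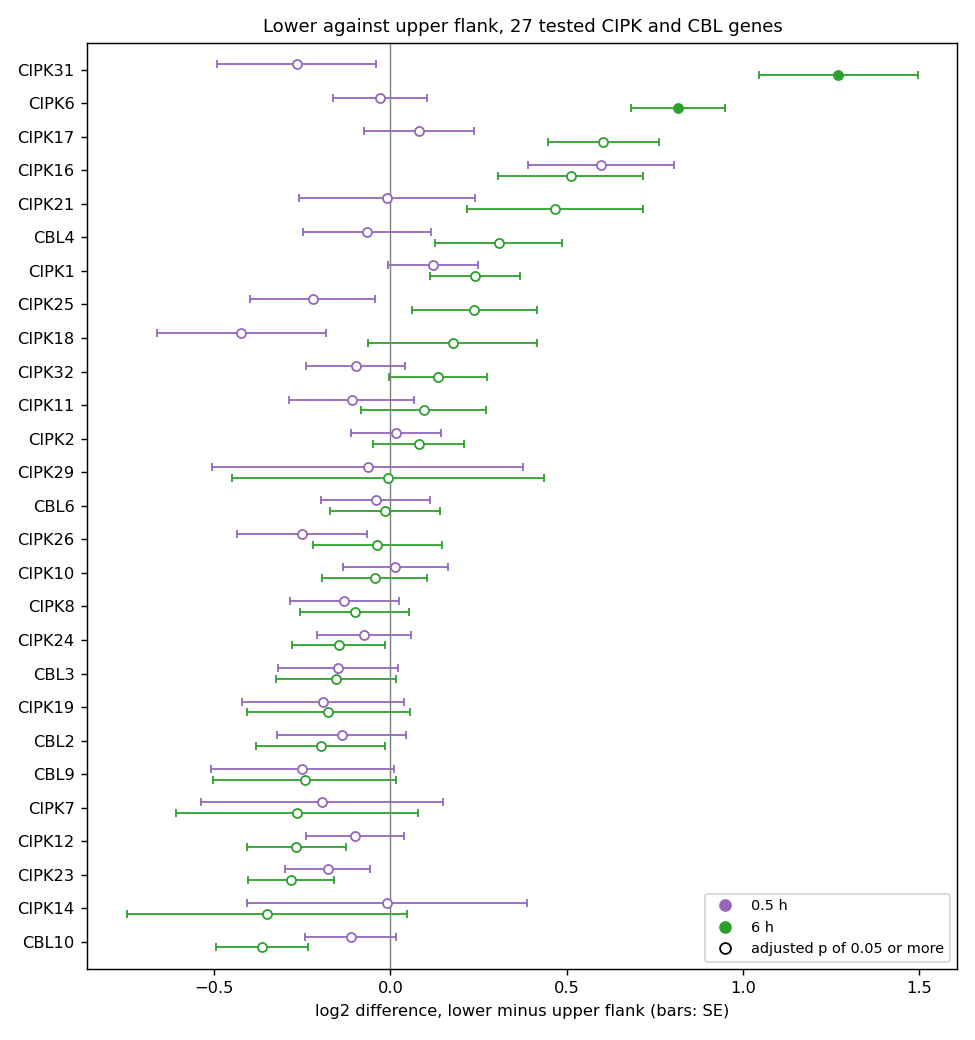
Log2 difference of lower minus upper flank for the 27 tested genes, after 0.5 h and after 6 h, with bars of 1 SE; filled points are called. CIPK31 (1.27) and CIPK6 (0.82) at 6 h are the 2 filled points, and CIPK16 is near 0.5 to 0.6 at both times.

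The calls at 6 h against 0 h outnumbered those between flanks, in the family as over all tested probe sets. From 0 h to 6 h 12 of the 27 genes (44.4%) were called in the upper flank, 5 higher and 7 lower, where 23.4% of all probe sets were called (8.04% higher, 15.4% lower). In the lower flank 7 were called (25.9%), 2 higher and 5 lower, where 20.5% of all were (6.21% higher, 14.3% lower). Both comparisons share the 3 arrays of 0 h. CIPK10 was called higher in both flanks and CIPK25, CIPK29, CIPK32 and CBL4 lower in both. Called in the upper flank alone were 7 genes, CIPK1, CIPK6, CIPK14, CIPK19, CIPK24, CIPK31 and CBL10. In the lower flank alone 2 were called, CIPK12 and CIPK16.

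The kinase CIPK10, on chromosome 3, changed most of the 27. On its brightest probe set it read 1.54, 1.25 and 1.13 at 0 h, 0.62, 0.41 and 0.63 in the 0.5 h upper flank, and 0.68, 0.57 and 0.45 in the 0.5 h lower flank. By 6 h the upper flank read 5.34, 5.0 and 5.11 and the lower flank 5.23, 4.89 and 5.19. The lowest of the 6 arrays at 6 h stood more than 3 log2 units above the highest of the other 9. Relative to 0 h the signal rose by 3.84 in the upper flank (SE 0.15, 14.3-fold, adjusted p = 2.24e-08) and 3.80 in the lower one (SE 0.15, 13.9-fold, adjusted p = 2.36e-08). Relative to 0.5 h the rises were 24.2-fold and 23.2-fold.

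The earlier samples were low for this gene, near the array median, and with 16 added to each signal before log2 the rise from 0 h was 3.45 in the upper and 3.41 in the lower flank. The flanks at 6 h differed by -0.04 (95% interval -0.37 to 0.28). All 4 probe sets of CIPK10 rose from 0 h to 6 h in both flanks, 3 of them by 14.3-fold to 32.7-fold in the upper and 13.8-fold to 19.9-fold in the lower flank. The set ending in S1_at lay below the array median at 0 h, on average at -0.55, and passed the filter through its 6 h signals, so no fold is given for it. On the probe set ending in S4_at the 6 h upper flank read 5.51, 5.70 and 5.62 and the lower flank 4.32, 4.88 and 5.48, without overlap. That difference of -0.71 (SE 0.28) was not called (adjusted p = 0.347), nor was that of -0.32 on S3_at (adjusted p = 0.318).

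**Figure D3:**
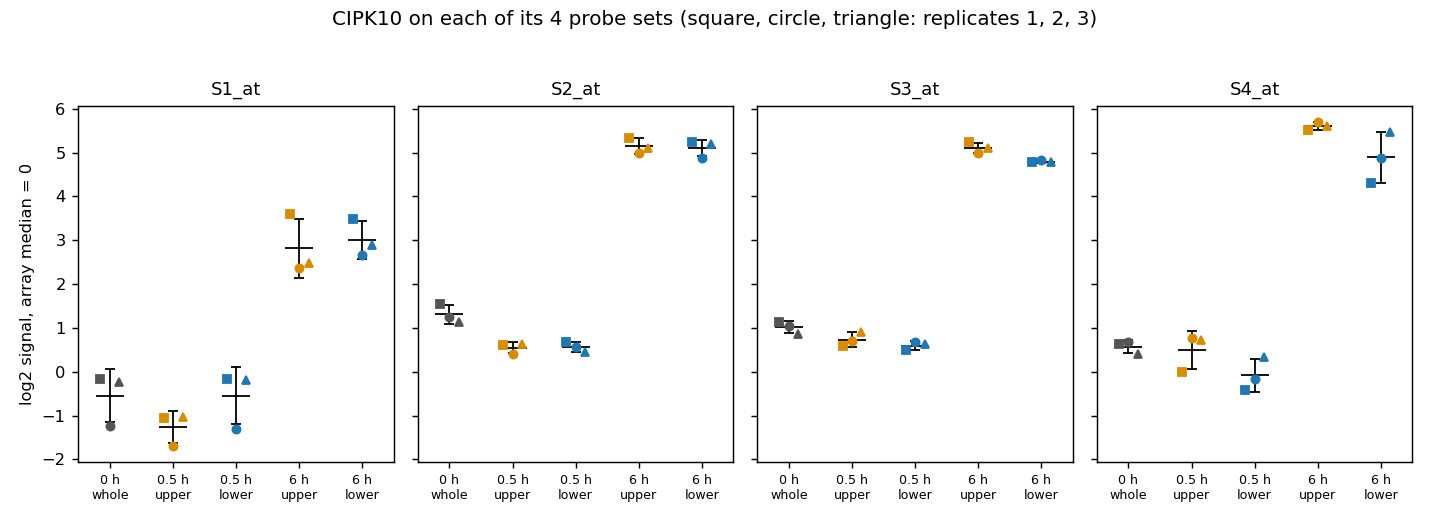
Log2 signal (array median = 0) of the 4 CIPK10 probe sets on each of the 15 arrays, with the mean ± SD of 3 arrays per group. In every panel the 6 arrays at 6 h lie above the other 9, and in S4_at the 6 h lower flank lies below the upper.

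The first 0.5 h showed 1 called gene in each flank, again CIPK10, on its brightest probe set alone. That set was 0.76 lower in the upper flank (SE 0.15, 1.69-fold, adjusted p = 0.0297) and 0.74 lower in the lower flank (SE 0.15, 1.67-fold, adjusted p = 0.0326) than at 0 h, and the 3 arrays of 0 h lay above all 6 arrays at 0.5 h. The other 3 sets, S3_at, S4_at and S1_at, were not called, with differences of -0.28, -0.08 and -0.71 in the upper flank and of -0.41, -0.66 and -0.0044 in the lower. Over all probe sets 1.68% were called in the upper flank (1.19% lower) and 1.63% in the lower flank (1.31% lower). Either call was lost on leaving out any of 5 single arrays, namely replicate 1 or 2 of 0 h or any of the 3 replicates of the flank compared, with the difference then between -0.62 and -0.80. It was also lost in 7 of 9 other settings, with -0.28 to -0.76 in the upper flank and -0.41 to -0.74 in the lower. In the lower flank, whose arrays at 0.5 h were treated as paired with those of 0 h, CIPK21 was also called with the replicate number as a block (-0.42, adjusted p = 0.0353).

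CBL4, the SOS3-type sensor on chromosome 5, fell in both flanks. It read 2.81, 2.70 and 2.93 at 0 h, 2.95, 3.25 and 2.69 in the 0.5 h upper flank, and 2.82, 3.05 and 2.81 in the 0.5 h lower flank. By 6 h it read 1.20, 0.83 and 1.06 in the upper flank and 0.98, 1.51 and 1.52 in the lower flank. The 6 arrays at 6 h lay below all other 9. The fall from 0 h was 1.78 log2 units in the upper flank (SE 0.18, 3.44-fold, adjusted p = 3.1e-05) and 1.48 in the lower flank (SE 0.18, 2.78-fold, adjusted p = 0.000139).

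The kinase CIPK25, on chromosome 6, followed the same course. Its signals of 4.59, 4.18 and 4.14 at 0 h and 4.20 to 4.84 over the 6 arrays at 0.5 h gave way to 2.89, 3.01 and 2.80 in the upper flank and 2.87, 3.28 and 3.26 in the 6 h lower flank, again without overlap. The falls from 0 h were 2.65-fold in the upper flank (adjusted p = 0.000148) and 2.24-fold in the lower flank (adjusted p = 0.00064). Over the 15 arrays CIPK25 and CBL4 had a Pearson r of 0.97, the highest of the 351 pairs of tested genes, and CIPK10 and CBL4 one of -0.97, the lowest, while the median pair had 0.16. Such values describe arrays that share 5 groups and carry no test.

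CIPK32, on chromosome 12, read 6.01, 6.25 and 6.11 at 0 h, 5.70 to 6.18 over the 6 arrays at 0.5 h, and 5.42, 5.18 and 5.40 in the upper and 5.27, 5.58 and 5.55 in the 6 h lower flank. Both flanks at 6 h lay below all arrays of 0 h, with falls of 0.79 (SE 0.14, adjusted p = 0.00145) and 0.66 (SE 0.14, adjusted p = 0.00549). From 0.5 h it fell by 0.60 in the upper flank (SE 0.14, adjusted p = 0.00521) and differed by -0.37 in the lower (adjusted p = 0.0737). The lower flank fall from 0 h was lost with the arrays of both groups alone (adjusted p = 0.0597). A second probe set of CIPK32 read close to the array median on all 15 arrays and was not called in these comparisons, with -0.35 in the upper (adjusted p = 0.194) and -0.50 in the lower flank (adjusted p = 0.0675) from 0 h and -0.28 in the upper flank from 0.5 h (adjusted p = 0.272).

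CIPK29, on chromosome 7, was less even. It read 4.96, 6.64 and 4.56 at 0 h, 5.48 to 5.99 over the 6 arrays at 0.5 h, 4.09, 3.75 and 4.18 in the 6 h upper flank, and 3.33, 4.58 and 4.09 in the 6 h lower flank. Replicate 2 of 0 h stood apart from the other two. The falls from 0 h were 1.38 in the upper flank (SE 0.44, adjusted p = 0.0383) and 1.39 in the lower (SE 0.44, adjusted p = 0.0418), both lost without the filter, with the arrays compared alone and with those numbered 2 and 3 alone, and the lower one with quantile scaling (adjusted p = 0.0521). Without replicate 2 of 0 h they were 0.76 (adjusted p = 0.102) and 0.76 (adjusted p = 0.115). Leaving out each array in turn, the upper flank call was lost in 6 of 15 fits, with falls of 0.76 to 1.47, and the lower flank call in 11, with falls of 0.76 to 1.43. Against 0.5 h the falls were 3.45-fold (adjusted p = 0.00756) and 3.32-fold (adjusted p = 0.012, lost without replicate 1 of the 6 h lower flank, where it was 1.39 with an adjusted p of 0.0501, and with the arrays numbered 2 and 3 alone, adjusted p = 0.168). CIPK2 lies next to CIPK29 with no annotated protein-coding gene between. CIPK2 was called in no comparison, with 6.03 to 6.33 at 0 h and 5.82 to 6.26 over the 6 arrays at 6 h. The change of CIPK29 relative to CIPK2 on the same arrays was -1.15 in the upper and -1.24 in the lower flank, each with p = 0.1 by a two-sided exact permutation test over samples, the smallest that 3 against 3 arrays allow. This pair too was chosen with its values known.

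**Figure D4:**
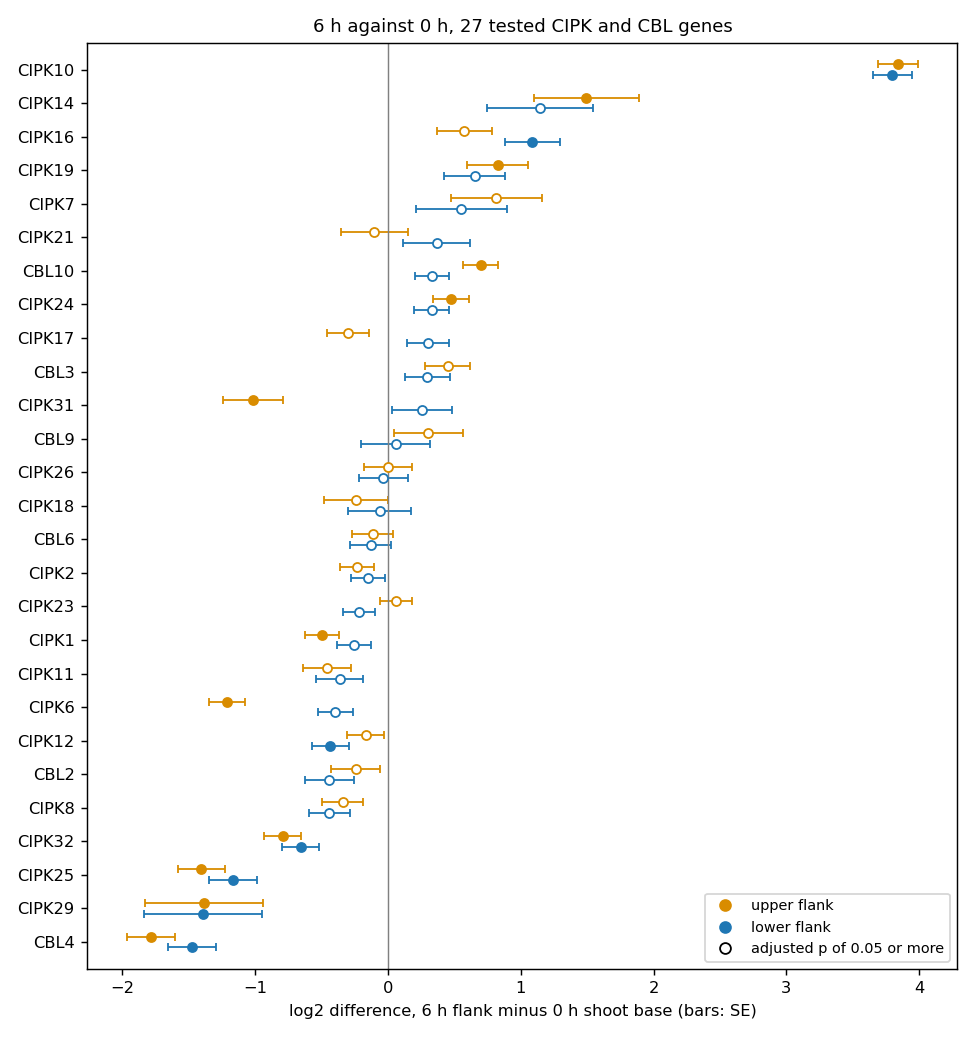
Log2 difference of the upper and of the 6 h lower flank from the whole shoot base at 0 h for the 27 tested genes, with bars of 1 SE; filled points are called. CIPK10 stands near 3.8 in both flanks and CBL4 between -1.8 and -1.4. Filled in the upper flank alone are 7 genes, CIPK6 and CIPK31 among them.

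The genes that rose from 0.5 h to 6 h in both flanks were CIPK10, CIPK14, CIPK16, CIPK19, CIPK24, CBL3 and CBL10. Those that fell in both were CIPK25, CIPK29 and CBL4. In the upper flank 13 of 27 genes were called over this interval, 7 higher and 6 lower, where 32.8% of all probe sets were (13.9% higher, 18.9% lower). In the lower flank 12 were called, 8 higher and 4 lower, where 24.3% were (10.8% higher, 13.5% lower). These comparisons set flank against flank, so the cut of the tissue is the same on both sides.

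CIPK14, on chromosome 12, is a kinase linked in cultured rice cells to responses to microbial elicitors. It read 5.56, 4.84 and 3.94 at 0 h, 3.54, 3.44 and 4.20 in the 0.5 h upper flank, and 3.60, 3.42 and 4.13 in the 0.5 h lower flank. By 6 h it read 6.29, 5.92 and 6.61 in the upper flank and 5.41, 5.79 and 6.57 in the lower flank. The arrays of 0 h were widely spread, and both flanks at 6 h lay above all 6 arrays at 0.5 h. From 0.5 h it rose 5.84-fold in the upper (adjusted p = 0.000345) and 4.61-fold in the lower flank (adjusted p = 0.00133). From 0 h the rise was 1.49 in the upper flank (SE 0.40, adjusted p = 0.0161), and 1.14 in the lower, not called (adjusted p = 0.0594). The upper flank call was lost without replicate 3 of 0 h (1.07, adjusted p = 0.0703) or without replicate 3 of the upper flank (1.33, adjusted p = 0.0668), without the filter (adjusted p = 0.0542) and with the arrays compared alone (0.0574).

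Where its sensor CBL4 fell from 0.5 h to 6 h in both flanks, CIPK24, the SOS2-type kinase on chromosome 6, rose. It read 5.15, 5.44 and 5.25 at 0 h, 4.99 to 5.23 over the 6 arrays at 0.5 h, 5.61, 5.85 and 5.81 in the 6 h upper flank, and 5.36, 5.70 and 5.77 in the 6 h lower flank. All 6 arrays at 6 h lay above the 6 at 0.5 h. From 0.5 h it rose by 0.65 in the upper flank (SE 0.13, adjusted p = 0.00244) and by 0.58 in the lower (SE 0.13, adjusted p = 0.00667, but 0.286 without centring), and from 0 h by 0.48 in the upper flank (adjusted p = 0.0205), a call that ended on leaving out any of 4 arrays (replicates 1 or 3 of 0 h, replicates 2 or 3 of the upper flank, with 0.41 to 0.46 and adjusted p up to 0.0766), without centring (adjusted p = 0.114), without the filter (0.0865) or with the arrays compared alone (0.0789). In the lower flank CIPK24 differed from 0 h by 0.33 (95% interval 0.04 to 0.62), not called. Relative to CBL4 on the same arrays CIPK24 changed by 2.26 in the upper and 1.81 in the lower flank from 0 h to 6 h. Each was at the smallest exact p of 0.1 (permutation test, adjusted p = 0.25). This pair was chosen with its values known, so that p is no test of their opposite course.

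CBL10, on chromosome 1, is the shoot partner of the SOS2 kinase in Arabidopsis. It read 3.41, 3.38 and 3.09 at 0 h, 2.90 to 3.20 over the 6 arrays at 0.5 h, 4.05, 3.89 and 4.04 in the 6 h upper flank, and 3.49, 3.55 and 3.84 in the 6 h lower flank. Both flanks at 6 h lay above every earlier array. In the upper flank it rose 1.62-fold from 0 h (adjusted p = 0.00195) and 1.79-fold from 0.5 h (adjusted p = 0.000307); in the lower flank it rose 1.51-fold from 0.5 h (adjusted p = 0.0048) and differed from 0 h by 0.33 (adjusted p = 0.0884). Without centring the upper flank call against 0 h (adjusted p = 0.0759) and the lower flank call (0.407) were lost. The change from 0 h to 6 h in CIPK24 minus that in CBL10 was -0.22 log2 units in the upper flank (exact p = 0.3) and -0.0052 in the lower (exact p = 1). The 5 gene pairs set against each other in this way were chosen with their values known. They include CIPK31 with CIPK6 and CIPK25 with CBL4. Over the 15 comparisons made no adjusted p was under 0.25.

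CBL3, on chromosome 3, whose Arabidopsis namesake sits at the vacuolar membrane, read 5.93, 6.06 and 5.87 at 0 h, and 5.39 to 6.00 over the 6 arrays at 0.5 h. At 6 h it read 6.20, 6.62 and 6.40 in the upper and 6.01, 6.22 and 6.53 in the lower flank, all above the arrays at 0.5 h. From 0.5 h it rose by 0.62 in either flank (SE 0.17, adjusted p = 0.0131 and 0.0178). The upper flank call was lost without replicate 3 of 0.5 h (0.57) or 2 of 6 h (0.52), and the lower flank call without replicate 1 of 0.5 h (0.49) or 3 of 6 h (0.48), with adjusted p from 0.051 to 0.0782. Both were lost without the filter (0.0519 and 0.0695), and the lower one also with the arrays compared alone (0.0731) and without centring, at 0.29 (0.228). CIPK19, on chromosome 5, read 4.65, 5.14 and 5.24 at 0 h, 4.53 to 5.18 over the 6 arrays at 0.5 h, 5.73, 5.90 and 5.89 in the 6 h upper flank and 5.19, 5.78 and 6.03 in the lower. From 0.5 h it rose 1.80-fold and 1.82-fold (adjusted p = 0.0129 and 0.0152), and from 0 h 1.78-fold in the upper flank (adjusted p = 0.0197). These calls were lost without replicate 1 of the 0.5 h upper flank (0.69), without replicate 1 of 0.5 h or 2 or 3 of 6 h in the lower flank (0.68 to 0.80), and, against 0 h, without replicate 1 of 0 h or 2 or 3 of the 6 h upper flank (0.65 to 0.80), with adjusted p up to 0.0772. The lower flank call and that against 0 h were also lost without the filter (0.0555 and 0.0688), and the former with the arrays compared alone (0.058).

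CIPK16 read 2.77, 2.39 and 1.94 at 0 h. From 0.5 h it rose by 1.07 in the upper flank (SE 0.21, adjusted p = 0.00162), and 0.98 below (SE 0.21, adjusted p = 0.00378), and from 0 h by 1.09 in the lower flank (adjusted p = 0.00274), all lost without centring (adjusted p from 0.056 to 0.168). Its probe set carries the suffix _x_at, which Affymetrix gives to sets that may share probes with other transcripts, and the neighbouring gene CIPK27 has no set of its own. The second set of CIPK31, the brightest set of CIPK2 and both sets of CBL9 carry the same suffix.

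The remaining 3 called genes were CIPK12, CIPK1 and CIPK21. CIPK12, on chromosome 1, a kinase tied to drought tolerance in rice, read 2.19, 2.06 and 2.26 at 0 h, 2.34 to 2.42 in the upper and 2.16 to 2.48 in the 0.5 h lower flank, 1.82 to 2.21 in the upper and 1.53 to 1.90 in the 6 h lower flank. The lower flank fell by 0.53 from 0.5 h (SE 0.14, adjusted p = 0.0134), a call lost without replicate 3 of 0.5 h or 2 of 6 h (-0.43 each, adjusted p = 0.0651 and 0.0597), without the filter (0.0612) or with the arrays compared alone (0.0717). It fell by 0.43 from 0 h (SE 0.14, adjusted p = 0.0437), a call lost on leaving out 10 of the 15 arrays in turn, 5 of them in groups outside this comparison, and in 8 of 9 other settings. A second, dimmer probe set of CIPK12 gave 0.10 from 0.5 h (adjusted p = 0.882). CIPK1, on chromosome 1, read 6.17, 6.52 and 6.55 at 0 h, 6.01 to 6.26 over the 6 arrays at 0.5 h, 6.03 to 6.27 in the 6 h lower flank and 5.88, 6.02 and 5.86 in the 6 h upper flank. The upper flank fell by 0.49 from 0 h (SE 0.13, adjusted p = 0.0142), a call lost without replicate 3 of 0 h (-0.43, adjusted p = 0.0589) or of the upper flank (-0.46, adjusted p = 0.0541), and without centring, without the filter or with the arrays compared alone (adjusted p from 0.0628 to 0.0843). CIPK21, on chromosome 7, read 4.75, 5.49 and 5.46 at 0 h, 4.57 to 5.02 in the 0.5 h upper flank and 4.89 to 5.27 in the 6 h upper flank. It read 4.41, 5.07 and 4.96 in the 0.5 h lower flank and 5.21, 5.90 and 5.69 at 6 h, a rise of 0.79 (SE 0.25, adjusted p = 0.0359) that was lost without replicate 1 (0.59) or 3 (0.86) of 0.5 h and without replicate 2 (0.64) or 3 (0.74) of 6 h, with adjusted p from 0.0575 to 0.136, and in the same 3 settings as CIPK1 (0.0606 to 0.108).

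Of the 10 genes called nowhere, CIPK2, CIPK7, CIPK8, CIPK11, CIPK18, CIPK23, CIPK26, CBL2, CBL6 and CBL9, differences ranged from -0.66 (CBL9, 0.5 h lower flank against 0 h, adjusted p = 0.216) to 0.82 (CIPK7, 6 h upper flank against 0 h, adjusted p = 0.107). In 3 of them a second probe set was called. For CIPK23, which opens the root potassium channel AKT1 together with a CBL, the brightest set read 5.40 to 5.79 at 0.5 h and 5.52 to 6.03 at 6 h, whereas the dimmer set read 3.66 to 4.29 and 5.03 to 5.55 and rose by 1.53 in the upper (adjusted p = 0.00489) and 1.13 in the lower flank (adjusted p = 0.0333). On that set the arrays of 0 h read 5.13, 5.55 and 3.72. For CIPK7 the dimmer set read 2.86, 3.40 and 3.12 at 0 h and 3.93 to 4.76 over the 6 arrays at 6 h, 2.75-fold higher in the upper (adjusted p = 0.000474) and 2.48-fold higher in the lower flank (adjusted p = 0.00115). The annotated record of CIPK7 also lists the names of a thylakoid transport protein, so which transcript either set reads is not settled. For CBL9 the dimmer set rose by 0.82 from 0.5 h to 6 h in the upper flank (adjusted p = 0.0189). The brightest set of CBL9 rose by 0.72 there (95% interval 0.15 to 1.28), in the same direction but not called.

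The wider group of related kinases, phosphatases and transport targets was counted in the same fits. Between flanks at 6 h no gene was called among 3 SnRK1 kinases, 10 SnRK2 kinases, 17 calcium-dependent protein kinases, 6 clade A protein phosphatases 2C (which bind CIPKs and SnRK2s) and 28 transport proteins; unadjusted p was under 0.05 in 0, 1, 1, 2 and 5 of them, and in 11.4% of all tested probe sets. In the upper flank from 0 h to 6 h, where 23.4% of all probe sets were called, the counts were 0, 5 (3 higher, 2 lower), 3 (2 higher, 1 lower), 1 (lower) and 10 (3 higher, 7 lower). In the lower flank, where 20.5% of all were, they were 0, 4 (2 higher, 2 lower), 3 (2 higher, 1 lower), 1 (higher) and 8 (2 higher, 6 lower). In pieces of tissue, fewer cells of a type and less RNA per cell cannot be told apart.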

How the data were processed

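Affymetrix Rice Genome arrays were hybridised with RNA put through a second round of amplification after oligo(dT) priming. The deposited signal intensity of each probe set was calculated by the authors with GCOS (MAS5 in the submitters' processing notes); the scaling target was not found in those sources, and detection calls were not used here. Intensities were taken to log2 and centred on the array median, 123 control probe sets were left out, and the 50% of probe sets with the highest mean were kept, a filter blind to groups. The model, limma 3.58.1 under R 4.3.3, had 5 group means over 15 arrays (residual degrees of freedom 10, prior 2.67), in place of the random-variance ANOVA of the methods. In simulated data of normal noise with the fitted variances, the median estimates returned the changes set. That checks the code and says nothing of the calls in these data.

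Gene names came from GEO's platform annotation and a RefSeq gene table; 22436 probe sets had 1 gene, 95 several and 34850 none. Genes with a call in the F test or any of 9 comparisons are described. Members and lists were chosen with earlier results of these data known. Replicates are pools, so p-values measure the spread between pools, and the number of arrays limits the precision. Deviations of same-numbered samples correlated at 0.22 to 0.50 between flanks at 0.5 h and 0.26 to 0.48 between flanks at 6 h. For the lower flank at 0.5 h and 0 h they correlated at 0.15 to 0.42. All were over 0.1, and these comparisons were treated as paired in the block fit alone. The main fit held no pairs, so p-values are unpaired unless the block is named. Other comparisons were not treated as paired. Alternatives covered scaling, filter, offset, variance trend, arrays in the fit, the block, probe set and each array left out.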

Additional observations from a re-analysis of the deposited data

How the results depend on the processing

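Of the single-gene calls, 48 were recomputed, and 1016 of their values under other settings or with an array left out kept direction and call, 134 lost the call and 1 reversed (CIPK12, lower flank at 6 h against 0.5 h, 0.0992 with its second brightest probe set). The number of arrays limits the precision. The cause of each change below was not tested.

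Between flanks at 6 h the count of called genes fell from 2 to 1 without centring, without a filter, with the arrays compared alone, with the arrays numbered 2 and 3 alone and with the second brightest probe set. With the arrays numbered 2 and 3 alone that gene was CIPK17, neither CIPK6 nor CIPK31. The count rose to 3, with CIPK17, under quantile scaling, the 25% filter, 16 added and the replicate block. The change of the flank difference called 2 genes in place of 0 with the 25% filter, with the arrays compared alone and with the replicate block, and 1 with 16 added or an intensity trend. At 0.5 h against 0 h either flank went from 1 to 0 without centring, with quantile scaling, without a filter and with 16 added. The count was also 0 with the arrays compared alone, with those numbered 2 and 3 alone and with the second probe set. It rose to 2 with the replicate block. CIPK10, the gene called, did not pass the 25% filter, so the count of 0 under that filter holds no test of it. At 6 h against 0 h the upper flank went from 12 to 7 without a filter and with the arrays compared alone and to 16 with quantile scaling, 15 with 16 added and 18 with the replicate block, and the lower flank from 7 to 11 with 16 added, 4 with the arrays compared alone and 14 with the replicate block, where the replicate numbers did not pair the samples. Over the other settings 10 to 17 genes were called in the upper and 8 to 15 in the lower flank at 6 h against 0.5 h, and 12 to 21 over the 5 groups. In the comparisons treated as paired the block changed no call beyond those of CIPK6, CIPK17, CIPK21 and CIPK31 given above.

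With each array left out in turn the counts were 13 to 17 over the 5 groups, 1 to 3 between flanks at 6 h, 0 to 0 between flanks at 0.5 h, 0 to 1 for the change of the flank difference, 0 to 1 in either flank at 0.5 h against 0 h, 8 to 13 in the upper and 5 to 9 in the lower flank at 6 h against 0 h, and 12 to 14 in the upper and 9 to 14 in the lower flank at 6 h against 0.5 h. Without centring, the median flank difference at 0.5 h moved from -0.08 to 0.14 over all probe sets and from -0.10 to 0.12 over the 27 genes.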
